A study of Mus musculus with 10 samples.

Results

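The genes that pass or block the RANK signal, through which bone marrow macrophage precursors become osteoclasts, were examined in cultured mouse marrow over 5 days and with adiponectin, a hormone secreted by fat cells. The set holds 9 genes of the 19938 with a probe set of their own symbol alone: the ligand gene Tnfsf11 (RANKL), its receptor gene Tnfrsf11a (RANK), the decoy receptor gene Tnfrsf11b (osteoprotegerin), the growth factor gene Csf1 and its receptor gene Csf1r, and the transcription factor genes Nfatc1, Prdm1, Irf8 and Bcl6. The rule takes members by name and uses no measured value, but the members were chosen with earlier results of these data known. Each was represented by 1 probe set. Adiponectin cultures received recombinant mouse adiponectin at 5 µg/ml and control cultures received vehicle. Cultures of both kinds held marrow from the long bones of male Swiss mice aged 4 to 6 weeks, kept in αMEM medium with serum and with calcitriol, an active vitamin D hormone. Affymetrix whole-transcript arrays, 10 in all, measured 1 adiponectin and 1 control culture after 4, 10, 24, 72 and 120 h, so that every time forms 1 of 5 pairs. The series title speaks of contamination with lipopolysaccharide, the bacterial endotoxin, and its part in a difference between the groups cannot be told apart from that of adiponectin.

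Osteoclasts, the cells that resorb bone, form when CSF1 keeps precursors of the macrophage lineage alive through its receptor and RANKL, carried mainly by stromal and osteoblast-lineage cells, binds RANK on those precursors. Osteoprotegerin, a secreted relative of RANK, captures RANKL before it reaches the receptor. RANK signalling induces NFATc1, the transcription factor that turns on the resorption genes. IRF8 and BCL6 hold that programme back in precursors, and BLIMP1, the product of Prdm1, represses their genes. Tnfsf11, Tnfrsf11a, Csf1, Csf1r, Nfatc1 and Prdm1 are therefore called inducers here and Tnfrsf11b, Irf8 and Bcl6 repressors.

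All values are log2 signals of the probe set, so a difference of 1 is a doubling, and levels of different genes are not set against each other. Array medians over the 19938 genes lay between 8.40 and 8.45 in adiponectin cultures and between 8.27 and 8.48 in control cultures, the lowest being the 10 h control. The marrow label was borne out by markers of several blood cell types. All 10 neutrophil markers, Elane, Mpo, Ltf and Camp among them, fell with time in culture, and their mean log2 signal was 13.01 at 4 h and 9.85 at 120 h. Of 7 measured B lineage markers 5 fell as well, while 6 of 10 stromal and osteoblast markers, 4 of 10 macrophage markers and 9 of 12 osteoclast effector genes rose. These counts are calls of a limma slope on log2 hours (adjusted p under 0.05), by which 9.81% of all genes rose and 8.67% fell. In such whole-culture RNA, fewer cells of a type and less RNA per cell cannot be told apart. Whether the cultures stem from different mice is not in the labels, so the p-values reflect the variation among these 10 cultures alone, and that variation may be technical.

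With time in culture, 4 of the 6 inducers and 0 of the 3 repressors rose. Csf1, Tnfrsf11a, Nfatc1 and Tnfsf11 rose, Csf1r and Prdm1 did not pass, and Irf8 and Bcl6 had negative slopes that did not pass. Over all 19938 genes, 9.81% rose and 8.67% fell (18.5% in all) in the same test, a limma slope on log2 hours beside treatment over all 10 arrays with Benjamini-Hochberg adjusted p under 0.05. At an unadjusted p under 0.05 the slope reached 5 of the 9, those 4 and Bcl6, against 28.5% of all genes. In 5 of the 9 members, Tnfsf11, Tnfrsf11a, Csf1, Csf1r and Nfatc1, all 4 arrays of 72 and 120 h lay above all 4 arrays of 4 and 10 h, as they did in 13.4% of all genes. In none of the 9 did they lie wholly below, against 9.05% of all genes. Csf1r met the first rule narrowly, with a lowest late value of 13.17 and a highest early value of 13.15. Set against array medians it did not, at 4.74 in the 120 h adiponectin array and 4.81 in the 10 h control.

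**Figure D1:**
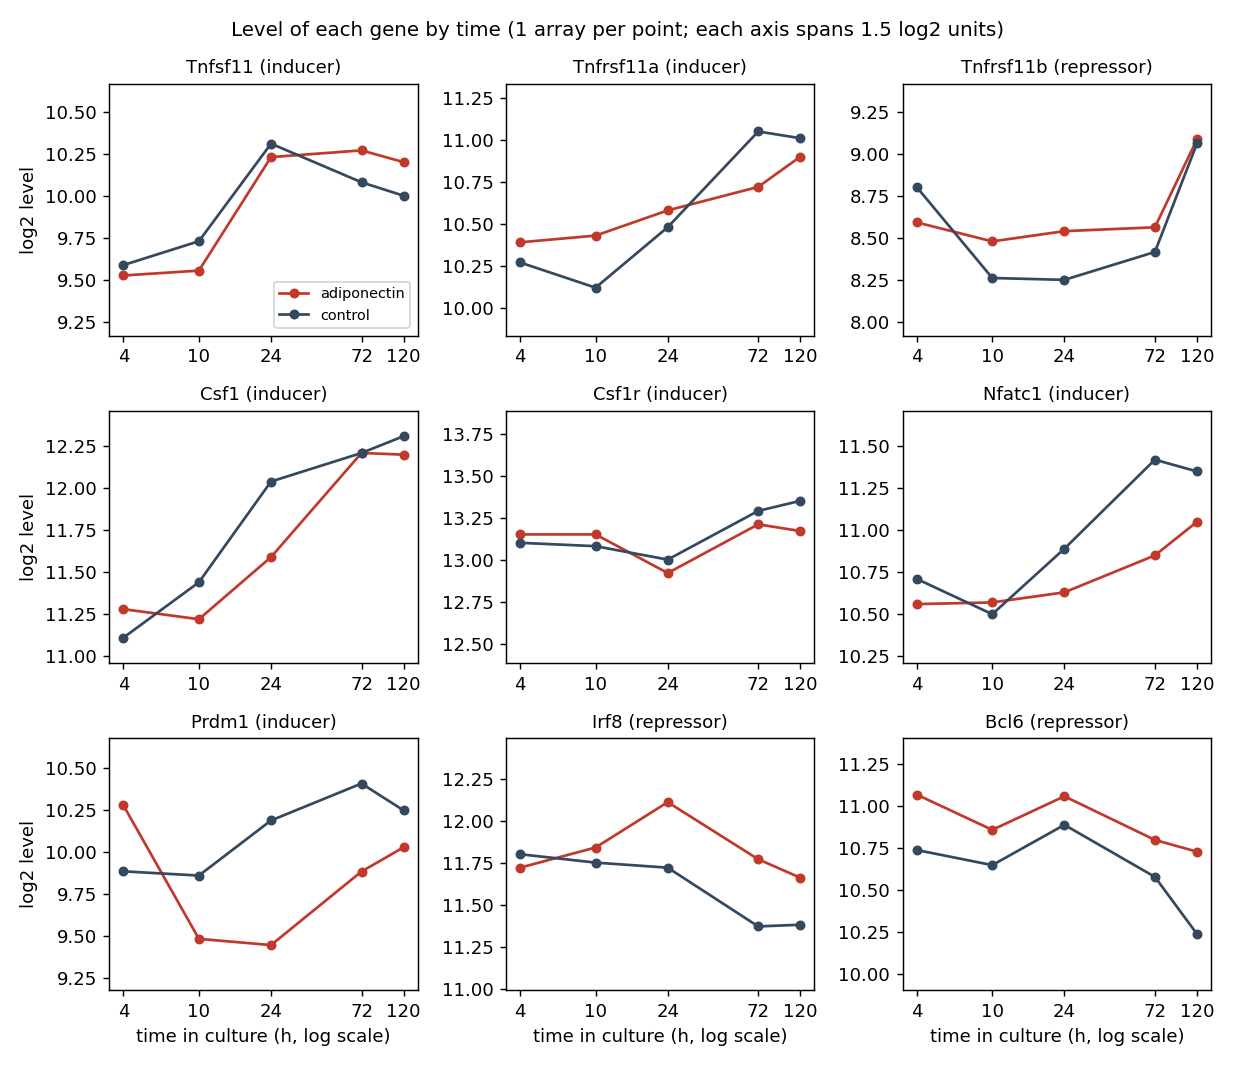
Log2 level (y axis) of each of the 9 genes by hours in culture (x axis, log scale), 1 array per point, with adiponectin cultures in red and control cultures in dark blue; every y axis spans 1.5 log2 units. Csf1 lies between 12.20 and 12.31 at 72 and 120 h in both groups, and the Irf8 lines part from 24 h on.

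Among the ligands, Csf1, which encodes the survival factor of macrophages and their precursors, had the steepest slope. From 4 to 120 h it was at 11.28, 11.22, 11.59, 12.21 and 12.20 in adiponectin cultures, against 11.11, 11.44, 12.04, 12.21 and 12.31 in control cultures. Both groups reached the same level at 72 h, and the 24 h arrays lay between the early and the late ones. The slope was 0.24 ± 0.026 per doubling of hours (SE; limma adjusted p = 0.000148), and the 4 arrays of 72 and 120 h averaged 0.97 above the 4 arrays of 4 and 10 h, or 1.96-fold. Its rise passed in the adiponectin arrays alone and in the control arrays alone.

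Tnfsf11, the RANKL gene, was higher from 24 h on. Adiponectin cultures had 9.53, 9.55, 10.23, 10.27 and 10.20 from 4 to 120 h, against 9.59, 9.73, 10.31, 10.08 and 10.00 in control cultures. In both groups the values at 24 h and later all lay above those at 4 and 10 h, and the control was highest at 24 h. The slope was 0.13 ± 0.034 (SE; adjusted p = 0.0187), and the limma F test for any difference between the 5 times, which needs no straight line, gave an adjusted p of 0.00597. The F test called 14.4% of all genes and 5 of the 9 members: Tnfsf11, Tnfrsf11a, Tnfrsf11b, Csf1 and Nfatc1. The slope's call was lost without the 4, 10 or 72 h pair (adjusted p = 0.214, 0.0662 and 0.0782) and on the means of both arrays of each time (0.11), while the F test's was kept without any 1 pair (adjusted p up to 0.0329).

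The rises of Csf1 and Tnfsf11 ran beside those of stromal markers. Col1a1 (0.24 per doubling), Col1a2 (0.23), Col3a1 (0.11), Alpl (0.40), Cxcl12 (0.51) and Pdgfrb (0.26) were the 6 of 10 stromal and osteoblast markers to rise, with a list median slope of 0.21 against 0.0095 over all genes. The summed linear signal of the 10 markers ranged from 8673 to 23030 in adiponectin cultures and from 8400 to 20550 in control cultures. The part of stromal cells in the rises was not tested. Across the 10 arrays, the genes most like Tnfsf11 among those with an SD of at least 0.3 were Serpinh1, the collagen chaperone (Pearson r = 0.961), Krt17 (0.954) and Rarres2 (0.953). Those most like Csf1 were Mfge8 (r = 0.983), Serpinf1 (0.982) and Maged1 (0.979). These likenesses over arrays that share a time course are descriptions.

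Tnfrsf11b, the decoy receptor gene, had its highest values at 120 h. It was at 8.59, 8.48, 8.54, 8.56 and 9.09 in adiponectin cultures from 4 to 120 h, against 8.80, 8.26, 8.25, 8.42 and 9.06 in control cultures. In controls the 10, 24 and 72 h arrays lay below the 4 h array. Its slope was 0.06 ± 0.044 (SE; limma adjusted p = 0.443), and the F test called it (adjusted p = 0.0167), a call that ended without the 120 h pair (0.442). Without the 4 h pair the slope was 0.16 and passed (adjusted p = 0.0421), and without the 120 h pair it was -0.041. The difference of Tnfsf11 minus Tnfrsf11b log2 signals, set against its mean over both 4 h arrays, stood at 0.22, 0.83, 0.85 and 0.25 in adiponectin cultures at 10, 24, 72 and 120 h, against 0.61, 1.20, 0.80 and 0.08 in control cultures. It was thus highest at 24 and 72 h and near its start at 120 h in both groups. Cd200r1 (r = 0.872), Parm1 (0.854) and Sfmbt1 (0.853) were most like Tnfrsf11b.

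The receptor gene Tnfrsf11a rose with time. From 4 to 120 h it was at 10.39, 10.43, 10.58, 10.72 and 10.90 in adiponectin cultures, against 10.27, 10.12, 10.48, 11.05 and 11.01 in control cultures. Each adiponectin value was above that of the time before, and the control values lay below the adiponectin values up to 24 h and above them afterwards. Its slope was 0.15 ± 0.028 (SE; limma adjusted p = 0.00296), and 72 and 120 h exceeded 4 and 10 h by 0.62, or 1.53-fold (means of 4 arrays each). Without the 120 h pair the slope was 0.14 with an adjusted p of 0.0589. The gene most like it over the 10 arrays was Acp5, the tartrate-resistant acid phosphatase that marks osteoclasts (r = 0.993), followed by Ephx2 (0.984) and Shtn1 (0.980).

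Csf1r, the receptor that transmits the CSF1 signal, stayed within a narrow band. Adiponectin cultures had 13.15, 13.15, 12.92, 13.21 and 13.17, against 13.10, 13.08, 13.00, 13.29 and 13.35 in control cultures, and the 24 h array was the lowest of each group. The slope of 0.03 per doubling had a 95% interval of -0.018 to 0.082 (limma adjusted p = 0.436). Intervals here and below are limma's for the single gene and are not adjusted for the number of genes. Mir181a-1 (r = 0.868), Fn1 (0.861) and Gpr137b (0.856) were the genes most like it.

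Nfatc1, the transcription factor gene that RANK signalling induces, rose with time. It was at 10.56, 10.57, 10.63, 10.85 and 11.05 in adiponectin cultures, against 10.71, 10.50, 10.89, 11.42 and 11.35 in control cultures. The highest adiponectin value, at 120 h, lay below the control values of 72 and 120 h. The slope over all arrays was 0.14 ± 0.028 (SE; limma adjusted p = 0.00516) and 72 and 120 h exceeded 4 and 10 h by 0.58. Fitted apart, the slope was 0.098 in adiponectin arrays and 0.18 in control arrays, each short of the threshold (adjusted p = 0.0676 and 0.0682), and the difference of the slopes did not pass either (-0.08 per doubling, adjusted p = 0.551). Without the 120 h pair the slope was 0.13 (adjusted p = 0.0973). Aldoc (r = 0.978), Srgap3 (0.972) and Jdp2 (0.971), an AP-1 family factor that promotes osteoclast formation in mice, were most like Nfatc1.

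Prdm1, which encodes BLIMP1, showed no common course. Adiponectin cultures had 10.28, 9.49, 9.45, 9.89 and 10.03, against 9.89, 9.86, 10.19, 10.41 and 10.25 in control cultures. The adiponectin value was the higher at 4 h and the lower at every later time, and the lowest values of all were those of adiponectin cultures at 10 and 24 h. Its slope was 0.05 ± 0.044 (SE; limma adjusted p = 0.572). Without the 4 h pair the slope was 0.14 and passed (adjusted p = 0.0144). Of 6 markers of plasma cells, which also use BLIMP1, 1 rose and 2 fell with time, where 9.81% of all genes rose and 8.67% fell. The summed linear signal of these 6 markers ranged from 5960 to 7118 in adiponectin cultures and from 6312 to 7627 in control cultures. Their part in the levels of Prdm1 was not tested. Dtx4 (r = 0.896), the metallothionein gene Mt1 (0.858) and Pdgfa (0.848) were most like it.

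**Figure D2:**
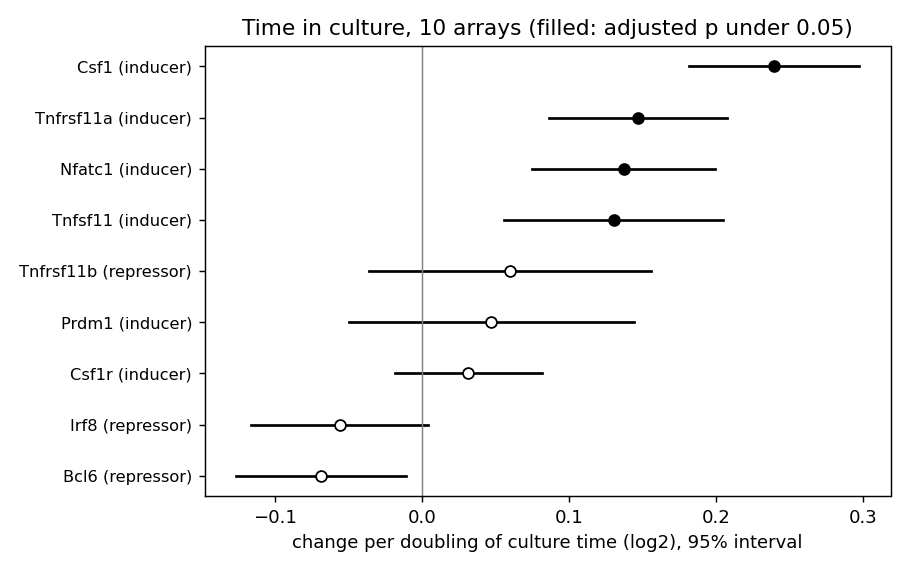
Change per doubling of culture time (x axis, log2 units) for each of the 9 genes, with limma's 95% interval as a bar and filled points for adjusted p under 0.05 (10 arrays). Csf1 at 0.24 is the steepest, the 4 filled points are inducers, and Irf8 and Bcl6 lie to the left of 0.

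Irf8 and Bcl6 had negative slopes that did not pass the test. Irf8, a factor of monocyte and dendritic cell precursors, was at 11.72, 11.84, 12.11, 11.77 and 11.66 in adiponectin cultures, against 11.80, 11.75, 11.72, 11.37 and 11.38 in control cultures. The lowest control values were those of 72 and 120 h, and the adiponectin values had their peak at 24 h. Bcl6, a transcriptional repressor of lymphoid and myeloid cells, was at 11.07, 10.86, 11.06, 10.80 and 10.73 in adiponectin cultures, against 10.74, 10.65, 10.89, 10.58 and 10.24 in control cultures. The 120 h array was the lowest of each group. The slopes were -0.06 ± 0.028 for Irf8 (limma adjusted p = 0.215) and -0.07 ± 0.027 for Bcl6 (0.105; SE in both). That of Bcl6 passed without the 24 h pair (-0.068, adjusted p = 0.0462). Most like Irf8 were Slc28a2 (r = 0.956), the interferon-induced Plscr1 (0.954) and Tspo (0.937), and most like Bcl6 were Mefv (0.958), Pilrb2 (0.956) and Slfn2 (0.954).

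The promoters of Irf8 and Bcl6 are shown because both genes had higher values with adiponectin from 24 h on. Neither passed the adiponectin test (limma adjusted p = 0.389 and 0.102). Tnfrsf11b was higher at those times as well, but no promoter was found for it. Both are also known targets of STAT factors, which carry interferon and cytokine signals. RefSeq promoters on GRCm38.p6, 250 bases before to 50 after a gene start, were found for 6 members (Tnfsf11, Tnfrsf11a, Csf1, Prdm1, Irf8 and Bcl6). Each was searched on both strands for the STAT-type motif TTCNNNGAA, which reads the same on both strands, the interferon-type motif (GAAA, any 2 bases, GAAA), the AP-1 motif TGANTCA and the NF-kB-type motif (GGG, any 2 bases, TTTCC), and no matches overlapped. The 250 bases before the start follow, 5′ to 3′ on the gene's strand, with STAT-type matches in capitals.
Irf8, chr8:120736108-120736357, plus strand: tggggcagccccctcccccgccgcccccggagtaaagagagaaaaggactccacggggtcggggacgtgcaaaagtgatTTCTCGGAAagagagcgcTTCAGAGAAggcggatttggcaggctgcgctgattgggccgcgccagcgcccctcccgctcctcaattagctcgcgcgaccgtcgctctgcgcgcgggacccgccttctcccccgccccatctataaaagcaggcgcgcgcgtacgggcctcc
Bcl6, chr16:23988853-23989102, minus strand: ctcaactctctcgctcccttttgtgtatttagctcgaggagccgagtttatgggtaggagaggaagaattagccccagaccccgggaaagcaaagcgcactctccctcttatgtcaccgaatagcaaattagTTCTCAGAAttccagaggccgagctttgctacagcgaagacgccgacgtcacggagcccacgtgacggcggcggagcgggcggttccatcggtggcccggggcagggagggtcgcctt
The Irf8 stretch holds 2 such matches and the Bcl6 stretch 1. A second Bcl6 start of the table holds 3, a second Irf8 start 0, and the promoters of Tnfsf11, Tnfrsf11a, Csf1 and Prdm1 hold 0. Of 32851 mouse promoters of that length, 8.3% hold at least 1. Csf1 holds 1 NF-kB-type match (1.63% of promoters) and Prdm1 1 AP-1 match (7.81%), and none of the 6 genes holds the interferon-type motif (3.44%). A match describes letters only. The motifs were chosen after the values were seen, and a part of STAT factors in the differences was not tested.

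With adiponectin, 0 of the 9 genes passed the limma test of the treatment term beside the 5 time points, where 2.05% of all genes rose and 0.371% fell (2.42% in all). At an unadjusted p under 0.05 it reached 3 of the 9, Nfatc1, Irf8 and Bcl6, against 10.1% of all genes. All 3 repressors had positive mean differences and 4 of 6 inducers negative ones, or 6 of 6 after median centring or repeated quantile normalization. From 10 to 120 h each of the 3 repressors was higher in 4 of 4 pairs, as were 11% of all genes, and Prdm1 was lower in 4 of 4, as were 7.7%. These counts carry no test. The span from 10 h leaves out the 4 h pair, in which Irf8 (-0.07) and Tnfrsf11b (-0.21) were lower and Prdm1 was higher (0.39). Set against array medians, Irf8 at 10 h was not higher, at 3.44 with adiponectin and 3.49 in control. Of the marker lists, neutrophil markers had a median difference of -0.22, B lineage markers -0.013, macrophage markers -0.0087 dendritic cell markers 0.011, stromal and osteoblast markers 0.040, plasma cell markers 0.012 and T cell markers 0.12. In these 7 lists 2 genes passed the threshold, both named after their values were seen. The dendritic cell marker Bst2, which is also induced by interferon, rose by 1.26 ± 0.42 (SD, n = 5 pairs; limma adjusted p = 0.000346; higher in 5 of 5), and the T cell marker Cd28 fell (-0.85 ± 0.25; limma adjusted p = 0.000493; lower in 5 of 5). Their part in the members' differences was not tested.

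**Figure D3:**
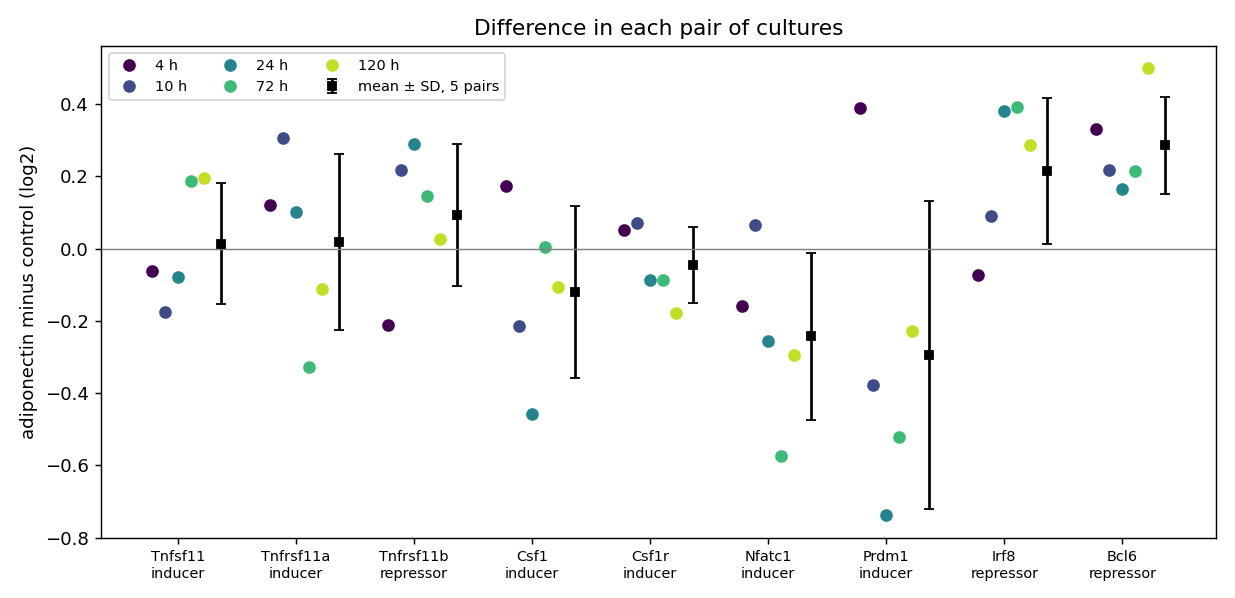
Adiponectin minus control difference (y axis, log2) of each gene in each of the 5 pairs, coloured by time, with the mean and SD over the 5 pairs as a black square and bar. All 5 Bcl6 points lie above 0, and those of Prdm1 run from 0.39 at 4 h to -0.74 at 24 h.

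On the deposited values Bcl6 was the only member with the same sign in every pair. It was higher in 5 of 5 pairs, by 0.33, 0.22, 0.17, 0.21 and 0.50 from 4 to 120 h, as were 6.32% of all genes (4.4% were lower in 5 of 5). Its mean was 10.90 ± 0.15 in adiponectin cultures and 10.62 ± 0.24 in control cultures (SD, n = 5 each), and the difference was 0.29 ± 0.13 (SD, n = 5 pairs; 1.22-fold; 95% interval 0.12 to 0.45; limma adjusted p = 0.102). Irf8 was at -0.07, 0.09, 0.38, 0.39 and 0.29, which gave 0.22 ± 0.20 (interval 0.02 to 0.41; adjusted p = 0.389). The 3 pairs from 24 h on held nearly all of that difference. Tnfrsf11b differed by -0.21, 0.22, 0.29, 0.15 and 0.03, or 0.09 ± 0.20 on average (interval -0.096 to 0.28; adjusted p = 0.841).

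Prdm1 and Nfatc1 had the largest negative mean differences. Prdm1 was at 0.39, -0.38, -0.74, -0.52 and -0.23 from 4 to 120 h, a mean of -0.30 ± 0.43 (SD, n = 5 pairs; interval -0.59 to 0.0018; limma adjusted p = 0.499). The 4 h pair decided that value: without it the difference was -0.47 with an adjusted p of 0.0408. Nfatc1 was at -0.16, 0.07, -0.25, -0.57 and -0.29, a mean of -0.24 ± 0.23 (interval -0.45 to -0.039; adjusted p = 0.343). It was lower in 4 of 5 pairs. Set against array medians, Nfatc1 was lower at 10 h as well, at 2.16 with adiponectin and 2.24 in control. Taken within each pair, Nfatc1 minus Irf8 differed by -0.08, -0.03, -0.64, -0.97 and -0.58, negative in 5 of 5. The mean differences of these 2 genes were already of opposite sign, and neither passed. How often other pairs of genes reach 5 of 5 was not counted, so that count carries no weight of its own.

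Ligands and receptors had smaller mean differences than Nfatc1, Prdm1, Irf8 and Bcl6. Tnfsf11 was at -0.06, -0.18, -0.08, 0.19 and 0.20 and averaged 0.01 ± 0.17 (interval -0.17 to 0.19; limma adjusted p = 0.981). Its sign turned to negative when arrays were centred on their medians (-0.012) or normalized again by quantiles (-0.0071). Tnfrsf11a was at 0.12, 0.31, 0.10, -0.33 and -0.11 and averaged 0.02 ± 0.24 (interval -0.19 to 0.23; adjusted p = 0.980), also with the sign turned under both scalings. The ligand was thus lower up to 24 h and higher at 72 and 120 h, and the receptor the reverse. Csf1 was at 0.17, -0.22, -0.46, 0.01 and -0.11, with a mean of -0.12 ± 0.24 (interval -0.33 to 0.086; adjusted p = 0.796) and its largest gap at 24 h. Csf1r differed by -0.05 ± 0.10 (interval -0.21 to 0.12; adjusted p = 0.922).

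A change of the difference with time was tested by the treatment by log2 hours term, with 3 residual degrees of freedom. It called 0 of the 9 members and 0% of all genes by limma, while an unadjusted p under 0.05 was reached by 0 of the 9 and by 9.83% of all genes. The members' terms ran from -0.12 per doubling for Prdm1 to 0.08 for Irf8, with adjusted p from 0.514 to 0.862. The interval for Irf8 was -0.0070 to 0.17 and that for Tnfrsf11a -0.19 to 0.0083.

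Averaged by role, inducers stood highest at 72 and 120 h in both groups, and repressors were lower in control cultures from 10 h on. The mean of the 6 inducers, set against both 4 h arrays, reached 0.08, 0.37 and 0.44 in adiponectin cultures at 24, 72 and 120 h, against 0.33, 0.59 and 0.56 in control cultures. The mean of the 3 repressors stood at 0.11, -0.08 and 0.04 in adiponectin cultures at those times, against -0.16, -0.33 and -0.23 in control cultures. The adiponectin minus control difference of inducers less that of repressors was 0.07 at 4 h, -0.23 at 10 h, -0.53 at 24 h, -0.47 at 72 h and -0.39 at 120 h, a mean of -0.31 ± 0.24 (SD, n = 5 pairs). The median single-gene difference over all genes ran from 0.04 and 0.07 at 4 and 10 h to -0.01 and -0.03 at 72 and 120 h. A shift shared by all genes cancels between inducers and repressors, so that median does not show how large such a gap is in other genes. No test was made of these averages, since the members were chosen with earlier results of these data known.

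**Figure D4:**
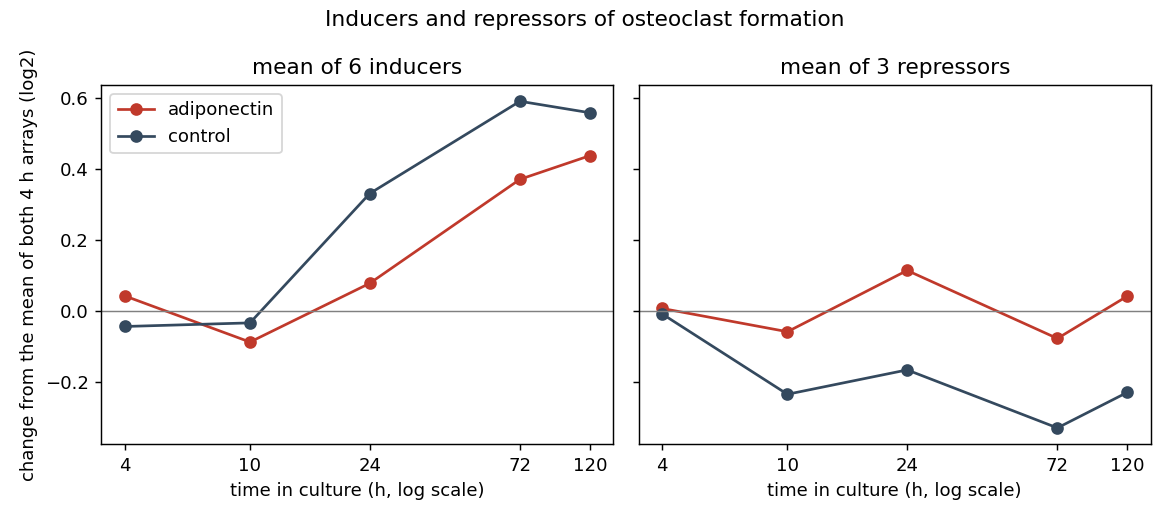
Mean log2 change from the average of both 4 h arrays (y axis) for the 6 inducers (left) and the 3 repressors (right) by hours in culture (x axis, log scale), adiponectin in red and control in dark blue. Control inducers reach 0.59 at 72 h, where adiponectin inducers stand at 0.37, and control repressors lie below the adiponectin ones from 10 h on.

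Of 20 measured RANK signal intermediates, 2 rose with time and 1 fell, where 9.81% of all genes rose and 8.67% fell, and 0 passed for adiponectin, where 2.42% of all genes passed, with a median difference of 0.02 against 0.01 over all genes. Traf1, a RANK adaptor, rose (0.28 ± 0.071 per doubling, SE; limma adjusted p = 0.0168), as did Lgr4, a second receptor for RANKL (0.29 ± 0.051; 0.00195), and the kinase gene Mapk14, named after its values were seen, fell (-0.10; 0.0177). Traf1 lost its call without the 72 or 120 h pair (0.0733 and 0.0648) or on the means of both arrays of each time (0.0648), and Lgr4 without the 120 h pair (0.0574), in adjusted p. With adiponectin, Traf1 was at 1.42 and 1.04 at 4 and 10 h and between 0.01 and 0.26 later (mean 0.55 ± 0.64; adjusted p = 0.255). Relb, of the alternative NF-kB pathway, differed by 0.88, 0.61, 0.36, 0.12 and 0.14 from 4 to 120 h (mean 0.42 ± 0.33; 0.0966), higher in 5 of 5 pairs, as were 6.32% of all genes.

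Of 14 costimulation and calcineurin genes, 1 rose and 4 fell with time, against the same 9.81% and 8.67% of all genes. Oscar, an immunoreceptor of osteoclasts, rose by 0.81 ± 0.10 per doubling (SE; limma adjusted p = 0.000333), and Plcg2, the phospholipase that links such receptors to calcium, fell (-0.15 ± 0.022; 0.000848). Syk, Ppp3cb and Creb1, named after their values were seen, were the others to fall. With adiponectin 0 passed, and Oscar differed most, by -1.93 at 72 h (mean -0.46 ± 0.88, SD, n = 5 pairs). Trem2, an immunoreceptor of myeloid cells, averaged -0.27 ± 0.39 (adjusted p = 0.515). Among 11 genes of CSF1 receptor signalling, 0 rose and 2 fell with time (9.81% and 8.67% of all genes), the phosphatase gene Ptpn6 (-0.11 ± 0.020; 0.00248) and Vav3 (-0.10 ± 0.028; 0.0296), and 0 passed for adiponectin. The adaptor gene Dok1 had the largest mean difference (0.12 ± 0.14; 0.704). The calls of Ptpn6 (without 120 h, 0.0819) and Vav3 (without 4, 10 or 72 h, up to 0.227) ended with 1 pair left out, and that of Vav3 also on the means of both arrays of each time (0.0948).

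Of 10 transcription partners of osteoclast formation, 3 rose with time, against 9.81% of all genes, and 0 passed for adiponectin. The AP-1 gene Fosl1 rose by 0.22 ± 0.035 per doubling (SE; limma adjusted p = 0.00117) and the coactivator gene Ppargc1b by 0.27 ± 0.053 (0.00353; without 120 h 0.0989). Fosl2, named after its values were seen, was the third. Mitf, a partner of NFATc1, was higher with adiponectin in 5 of 5 pairs (0.24 ± 0.22, SD; adjusted p = 0.349), as were 6.32% of all genes. Its differences at 24 and 72 h were only 0.02 and 0.04. Myc was lower in 4 of 5 pairs (-0.28 ± 0.38; 0.478). Among 9 other measured genes listed as repressors, 1 rose with adiponectin, as did 2.05% of all genes, and 2 fell with time, as did 8.67%. Their roles in these cultures were not tested, so a rise of a listed gene gives no direction for osteoclast formation. Socs1, the feedback inhibitor of cytokine signalling, rose by 0.78 ± 0.52 on average over the pairs (SD, n = 5), or 1.71-fold, and was above control in each of them (adjusted p by limma = 0.0251). That call ended without the 4, 10 or 24 h pair (0.0734, 0.0871 and 0.147) without the pairing (0.181) and with log2 hours for the block (0.0581). Tnfaip3, an inhibitor of NF-kB, was at 0.86 and 0.81 at 4 and 10 h (mean 0.41 ± 0.42; 0.226). Bach2, which restrains BLIMP1-driven programmes in lymphocytes, fell with time by 0.48 ± 0.063 per doubling (SE; adjusted p = 0.000385), and Id2 by 0.09 ± 0.019 (0.00674; without 120 h 0.164). The fall of Bach2 ran beside that of the B lineage markers, whose summed linear signal ranged from 4827 to 16590 in adiponectin cultures and from 4159 to 17230 in control cultures. Their part in it was not tested.

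Osteoclast effector genes, many of them turned on by NFATc1, were measured as a further list. Of 12 osteoclast effector genes 9 rose with time, against 9.81% of all genes, and Itgb3, named after its values were seen, fell, with a median slope of 0.28 against 0.14 for Nfatc1. Ctsk, the collagen-degrading protease, rose by 0.77 ± 0.077 per doubling (SE; limma adjusted p = 9.7e-05) and Slc9b2 by 0.69 ± 0.10 (0.000811). With adiponectin 1 of 12 fell, where 0.371% of all genes fell: Atp6v0d2, a proton pump subunit needed for cell fusion (-0.91 ± 0.43, SD, n = 5 pairs; 1.88-fold; adjusted p = 0.00346; lower in 5 of 5), and the call held with any 1 pair left out (up to 0.0108) but not without the pairing (0.890) or with log2 hours for the block (0.147). At 72 h, where Nfatc1 had its widest gap (-0.57), the mean difference of the 12 genes was -1.11, against -0.31 at 24 h and -0.27 at 120 h. At 4 and 10 h it was 0.03 and 0.09, where Nfatc1 differed by -0.16 and 0.07. Each of these values rests on 1 adiponectin and 1 control array, and a part of Nfatc1 in the list's differences was not tested. Atp6v0d2 also rose with time (0.27 ± 0.070 per doubling, SE; adjusted p = 0.0165), a call lost without the 10, 72 or 120 h pair (up to 0.289), on the means of both arrays of each time (0.101) and with the trended robust prior (0.0563).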

How the data were processed

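The deposited values are log2 signals, 1 per probe set and array; the authors' processing named RMA, Partek and Affymetrix's Expression Console, per the submitters' processing notes, without versions or order. RMA normalizes by quantiles, so a shift shared by most genes would be largely removed. Scanner files were not used here, so signal over background is unknown. Of 35556 probe sets on 10 arrays, 21789 had 1 gene symbol in the platform annotation, 1621 several and 12146 none. The highest-mean probe set stood for each of 19938 genes.

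Tests used limma 3.58.1 in R 4.3.3 over all 19938 genes (lmFit, eBayes, two-sided, Benjamini-Hochberg, threshold 0.05) and were checked on simulated data. For adiponectin, the model held treatment and a block of 5 time levels, since each time has its own control (4 residual degrees of freedom). The time slope and F test had treatment as covariate (7 and 4), and no block, which treats both arrays of 1 time as independent. Their deviations correlated at 0.075 (duplicateCorrelation). Arrays, not probe sets, limit the precision. Alternatives were repeated quantile normalization, median centring, averaged probe sets, a dim-gene filter, a trended robust prior, other time terms and each pair left out.

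Genes named by rule are, per pathway list, those past the adiponectin threshold, the 2 largest mean adiponectin differences and the 2 steepest called slopes; for each member, the 3 most correlated genes. Members and lists were chosen with earlier results of these data known; the motifs were chosen after the values were seen. Cell type markers lie outside that rule and were named after their values were seen. Some listed genes are not reported here.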

Additional observations from a re-analysis of the deposited data

Results flagged for a closer look

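Adiponectin minus control differences of Tnfsf11 were below 0 in all 3 pairs from 4 to 24 h and above 0 at 72 and 120 h, and those of Tnfrsf11a the opposite. The test of change with time gave 0.070 per doubling of hours for Tnfsf11 (limma adjusted p = 0.531) and -0.092 for Tnfrsf11a (limma adjusted p = 0.515), so neither passed.

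A level stood apart from the other 4 of its group in 2 cases. Tnfrsf11b in the adiponectin culture of 120 h was at 9.09, against 8.48 to 8.59 in the other adiponectin cultures. The control of that time was high as well, at 9.06. Csf1r in the adiponectin culture of 24 h was at 12.92, against 13.15 to 13.21 in the other adiponectin cultures, and the 24 h control, at 13.00, was the lowest control. Chance alone would mark about 1 in 20 such groups, and the arrays of a group differ in time.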

How the results depend on the processing

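Over the members' results, directions and calls held under most alternatives, with these exceptions. The adiponectin effect near 0 changed sign for Tnfsf11 and Tnfrsf11a after repeated quantile normalization (-0.0071 and -0.0059) and median centring (-0.012 and -0.0080). With 1 pair left out it ran from -0.032 to 0.061 for Tnfsf11, -0.054 to 0.10 for Tnfrsf11a and -0.47 to -0.18 for Prdm1. It was furthest from 0 or nearest to it, by over 1.5 times, for Csf1 without the 4 h (-0.19) or 24 h pair (-0.036), Csf1r without 10 h (-0.074) or 120 h (-0.012), Tnfrsf11b without 4 h (0.17) or 24 h (0.045) and Nfatc1 without 72 h (-0.16), none of them past the threshold. The genes lower with adiponectin, 74, became 117 with the trended robust prior, 30 with log2 hours for the block, 4 (and 146 in place of 408 higher) without pairing, and 21 to 62 with 1 pair left out. No member passed without pairing.

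For time in culture, Tnfsf11 lost its call on the means of both arrays of a time (0.13; adjusted p = 0.11), in control arrays alone (0.095), in adiponectin arrays alone (0.17) and against hours (0.0039 per h). Nfatc1 lost it in control (0.18) and adiponectin arrays alone (0.098), where Prdm1 turned to -0.011. Bcl6 passed against hours (-0.0034 per h). Genes higher and lower, 1956 and 1728, became 985 and 974 on means, 513 and 490 in controls and 857 and 799 in adiponectin arrays; fewer arrays entered these fits. With 1 pair left out the counts ran from 674 to 2127 and 650 to 1871, and the slopes from 0.11 to 0.18 (Tnfsf11), 0.13 to 0.20 (Tnfrsf11a), 0.12 to 0.19 (Nfatc1), -0.041 to 0.16 (Tnfrsf11b), 0.020 to 0.14 (Prdm1) and -0.084 to -0.032 (Bcl6). The F test's adjusted p was 0.0467 for Bcl6 with the trended robust prior. With 1 pair left out it ran from 0.0183 to 0.0932 (Tnfrsf11a), 0.00638 to 0.442 (Tnfrsf11b) and 0.0232 to 0.114 (Nfatc1), with 1583 to 2807 genes called against 2867.

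The change of the effect with time turned sign for Csf1 with median centring (0.0078) and against hours (0.000285 per h). With 1 pair left out it ran from -0.050 to 0.070 (Csf1), -0.056 to 0.079 (Tnfrsf11b), -0.22 to 0.045 (Prdm1) and -0.028 to 0.064 (Bcl6). In place of 0 genes, 1 rose with median centring, 2 against hours, 2 rose and 3 fell with the trended robust prior, and 0 to 1 rose with 1 pair left out. The gap between inducers and repressors ran from -0.41 to -0.26 over all its alternatives. The causes of these shifts were not tested. With 1 array per group and time, no difference at a single time has an error.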
